A study of Mus musculus with 6 samples.

Results

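The 10 genes described here are the Notch receptors Notch1, Notch2, Notch3 and Notch4, the ligands Jag1, Jag2, Dll1 and Dll4, and the target genes Hes1 and Hey1. They were picked by symbol from a table of 41214 genes, and each matched 1 row. The cells were explants of mouse mammary tumors, grown in DMEM with serum, insulin and the selection drug G418. Both groups came from the mouse mammary epithelial line NMuMG and carried Neu-NT, a constitutively active ErbB2 receptor. In 3 libraries of total RNA the cells carried a hairpin against CdGAP (genotype Neu-NT shCdGAP, called shCdGAP here), and 3 libraries came from cells with a control hairpin (genotype Neu-NT shCON, titled shCtl). Arhgap31 encodes CdGAP, which switches off the small GTPases Cdc42 and Rac1. How many hairpins or clones were used is not given in the sources used here, and all 6 samples bear 1 cell type label, which names the control hairpin.

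Notch signaling passes between touching cells. A Jagged or Delta-like ligand on one cell binds a Notch receptor on its neighbour, the receptor is cut by ADAM proteases and then by gamma-secretase, and the freed intracellular domain joins the DNA-binding protein Rbpj in the nucleus to turn on genes such as those of the Hes and Hey families. In the mammary gland the pathway takes part in luminal cell fate, and mouse Notch4 was found as Int3, a site where mouse mammary tumor virus inserts in mammary tumors.

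The libraries held 19176540 to 26824249 gene-assigned reads. Replicate 1 of shCdGAP stood apart: on the log2 scale it correlated at 0.948 and 0.938 with replicates 2 and 3 of its group, which correlated at 0.996 with each other, over 13483 genes that are not independent replicates. Its summed level of 10 proliferation genes was 75.02 FPKM (fragments scaled to gene length and library depth), against 711 to 717 FPKM in shCdGAP replicates 2 and 3 and 406 to 578 FPKM in the shCtl libraries. Arhgap31, the target of the hairpin, averaged 0.574 ± 0.370 FPKM in shCdGAP and 1.28 ± 0.0810 FPKM in shCtl (SD, n = 3 each). It was lowest, at 0.149 FPKM, in shCdGAP replicate 1 (limma adjusted p = 0.0836, and 0.0157 without that library). The authors' deposited DESeq2 comparison did not call Arhgap31 (log2 fold change -0.99, adjusted p = 0.125). Of 6 markers of the labelled epithelial type, Krt8, Krt18 and Krt19 were abundant in every library and did not pass the test. Cdh1, which encodes E-cadherin, rose to 168 ± 16.1 FPKM in shCdGAP, against 50.7 ± 11.1 FPKM in shCtl (SD, n = 3 each; adjusted p = 0.00220, limma). Krt7, below 1 FPKM in every library, rose to 0.792 ± 0.269 FPKM in shCdGAP, against 0.264 ± 0.0460 FPKM in shCtl (adjusted p = 0.0353, limma, and 0.0551 with the replicate block). Epcam fell: it was listed at 0 in the 3 shCdGAP libraries, against 0.517 to 0.812 FPKM in shCtl (adjusted p = 0.00232, limma). Erbb2, checked because both groups carry Neu-NT, fell to 38.8 ± 11.5 FPKM in shCdGAP, against 133 ± 14.7 FPKM in shCtl (SD, n = 3 each; adjusted p = 0.00486, limma). Reads of the cells' own Erbb2 and any reads of Neu-NT cannot be told apart in these values. Whether each library had a culture of its own is not in the labels, so a p-value here measures the spread among these libraries, which may be technical. In such bulk RNA, fewer cells of a kind and less RNA per cell cannot be told apart.

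Of the 10 genes, 9 had enough reads to be tested, and 3 of these fell in shCdGAP: the receptor Notch4 and the ligands Jag2 and Dll4 (limma on log2(FPKM + 1), adjusted p under 0.05). None of the 9 passed as higher, with limma on FPKM or with limma-voom on recovered reads (which called 10.1% of all genes as higher), and 4 of those with higher levels in shCdGAP, Notch1, Notch2, Jag1 and Hey1, were at an unadjusted limma p under 0.05. Across all 13483 tested genes, 11.1% passed as lower and 9.92% as higher. The groups did not overlap for 8 of the 9 genes, all but Dll1, as was the case for 44.1% of all tested genes. The authors' deposited table, which used DESeq2, called 6 members, the 3 above as lower and Notch1, Jag1 and Hey1 as higher, where it called 23.8% of all its genes. Without shCdGAP replicate 1 the limma fit called 5 members, the 3 as lower and Notch1 and Hey1 as higher, where it called 39.9% of all tested genes. With the replicate block it called the 3 and Hey1, and 18.2% of all genes, and with both libraries numbered 1 left out it called 6 members, the 3 along with Notch1, Jag1 and Hey1, and 48.3% of all genes. The median log2 fold change of the 9 was 0.23, beside -0.01 for all tested genes.

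**Figure D1:**
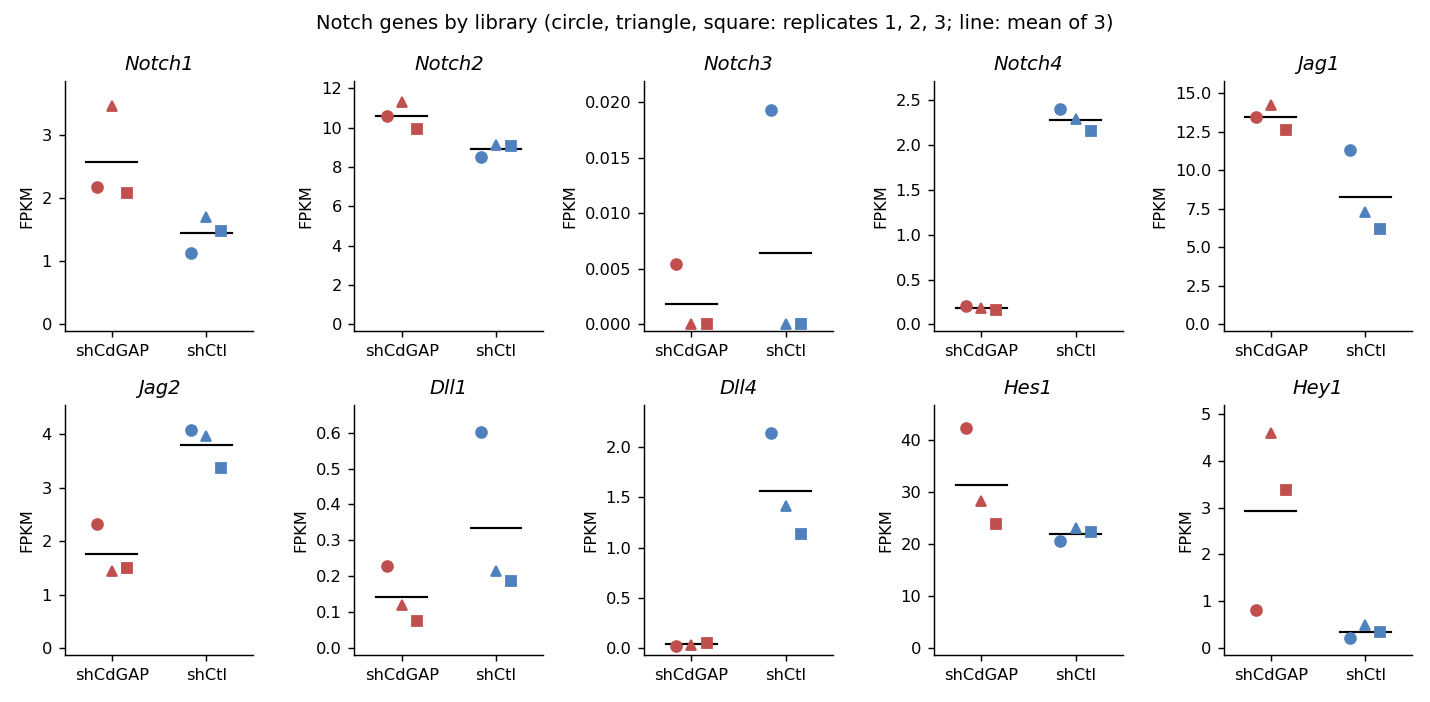
FPKM of each of the 10 Notch genes in every library, with shCdGAP in red and shCtl in blue, symbols for replicates 1, 2 and 3, a line at the mean of 3, and a linear axis from 0 in each panel. Notch4, Dll4 and Jag2 are lower in all 3 shCdGAP libraries than in any shCtl library, Hey1 is low in shCdGAP replicate 1 (0.814 FPKM) and high in replicates 2 and 3, and Notch3 is close to 0 throughout.

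**Figure D2:**
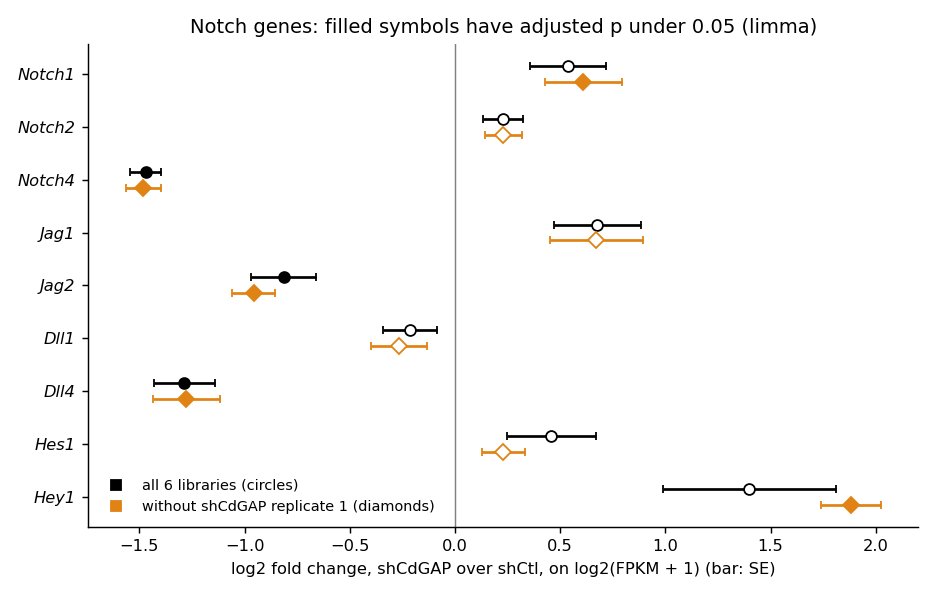
Fitted log2 fold change of shCdGAP over shCtl with its SE for the 9 tested genes, with all 6 libraries in black and without shCdGAP replicate 1 in orange, filled where the adjusted p was under 0.05. Notch4, Jag2 and Dll4 lie left of 0 in both fits, and Notch1 and Hey1 pass only in the fit without that library.

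The stretches of 250 bases before the start sites of Notch4 and Dll4 are shown because these genes had the largest falls of the 10. Windows were found in the RefSeq promoter table of build GRCm38.p6 for 8 of the 10 genes, all but the targets Hes1 and Hey1. Dll1 has a pair of start sites, which makes 9 windows in all. That of Notch4 is chr17:34564045-34564294 and that of Dll4 is chr2:119325534-119325783, both on the plus strand and read 5′ to 3′. The start sites are those of RefSeq, and the gene start of Notch4 given below, 34564268, lies inside its window. Capitals mark the GC box GGGCGG on either strand.
Notch4: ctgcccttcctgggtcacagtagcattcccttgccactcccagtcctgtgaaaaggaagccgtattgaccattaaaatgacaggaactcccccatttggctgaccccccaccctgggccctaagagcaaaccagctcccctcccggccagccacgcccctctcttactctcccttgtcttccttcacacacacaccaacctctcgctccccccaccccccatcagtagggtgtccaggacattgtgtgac
Dll4: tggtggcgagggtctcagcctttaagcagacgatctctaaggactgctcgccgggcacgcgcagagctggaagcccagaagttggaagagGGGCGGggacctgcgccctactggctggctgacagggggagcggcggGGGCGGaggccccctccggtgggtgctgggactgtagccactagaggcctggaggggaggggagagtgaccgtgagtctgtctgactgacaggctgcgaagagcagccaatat
The Dll4 window holds 2 GC boxes and the Notch4 window none, and 32.7% of all 32851 such windows hold at least 1. Neither holds the Rbpj core TGGGAA, the E2-box CACCTG or the AP-1 site TGANTCA on either strand, which 21.6%, 17.2% and 6.75% of all windows hold, in that order. Among the 9 windows of these genes, 5 hold a GC box, 0 the Rbpj core, and 1 each the E2-box and the AP-1 site, both in a Dll1 window. These counts do not cover the targets Hes1 and Hey1, which had no window. No match says only that these letters are not in these 250 bases.

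Among the receptors, Notch4 (ENSMUSG00000015468, chromosome 17, 34564268 to 34588503 of GRCm38, plus strand) measured 0.206, 0.186 and 0.165 FPKM in the shCdGAP libraries, with 38, 33 and 33 reads behind these values. In shCtl it had 2.40, 2.30 and 2.16 FPKM, from 374, 509 and 465 reads. The replicates of each group lay close together, and the groups were far apart. The means were 0.186 ± 0.0207 and 2.28 ± 0.123 FPKM in shCdGAP and shCtl (SD, n = 3 each), so Notch4 was 12.3-fold lower. On the fitted log2 scale the change was -1.47 (SE 0.07; limma adjusted p = 0.000138). Adding 1 FPKM shrinks the change of so low a gene: it was -3.06 with 0.1 FPKM added, and -3.54 in the authors' deposited table. Notch4 passed in each of 14 alternative fits, with adjusted p up to 0.00374 (limma).

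Notch2 and Notch1 went the other way from Notch4 in level, without passing the test. Notch2 (ENSMUSG00000027878, chromosome 3, 98013527 to 98150361, plus strand), the most abundant receptor here, had 10.6, 11.3 and 9.91 FPKM in shCdGAP, against 8.53, 9.11 and 9.05 FPKM in shCtl. Each shCdGAP library was above each shCtl library, by little (log2 fold change 0.23, SE 0.09, adjusted p = 0.143, limma). Notch1 (ENSMUSG00000026923, chromosome 2, 26457903 to 26516663, minus strand), a receptor of stem and progenitor cells in many tissues, had 2.17, 3.44 and 2.08 FPKM in shCdGAP, against 1.13, 1.70 and 1.48 FPKM in shCtl. The groups did not overlap, and replicate 2 was the highest of each group. Notch1 had a fitted log2 difference of 0.53 (SE 0.18; limma adjusted p = 0.0893). Exons of Notch1 overlap 2 transcripts of the opposite strand, counted at under 0.5 FPKM on average in both groups. Notch1 passed with shCdGAP replicate 1 left out (0.61, adjusted p = 0.0379) and with both libraries numbered 1 left out (0.52, adjusted p = 0.0498), and the authors' deposited table called it higher (log2 fold change 0.80, adjusted p = 0.0204). Notch3 (ENSMUSG00000038146, chromosome 17, 32120820 to 32166852, minus strand), a receptor best known from vascular smooth muscle, had 1 read in shCdGAP replicate 1 and 3 reads in shCtl replicate 1, and 0 in the other 4 libraries. These lie at or under a floor of 3 reads per library, so no fold is given and no difference was detectable at this depth.

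Summed over the 4 receptors, levels were 12.98, 14.95 and 12.16 FPKM in shCdGAP and 12.1, 13.1 and 12.7 FPKM in shCtl, and these ranges overlap. The ratio of the group means was 1.06, whereas the makeup of the sum differed. Notch4 made up 1.59%, 1.25% and 1.36% of it in shCdGAP, against 19.9%, 17.5% and 17.0% in shCtl. Notch1 made up 18.9% ± 3.55 in shCdGAP and 11.3% ± 1.86 in shCtl (SD, n = 3 each), and Notch2 made up 75.7% to 81.7% in shCdGAP, against 69.5% to 71.3% in shCtl. In shCtl, Notch4 was thus above Notch1 in every library (Notch1 over Notch4, 0.469 to 0.742), and in shCdGAP it was below (10.5 to 18.5). These shares are a description without a test, since Notch4 itself sets much of them.

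**Figure D3:**
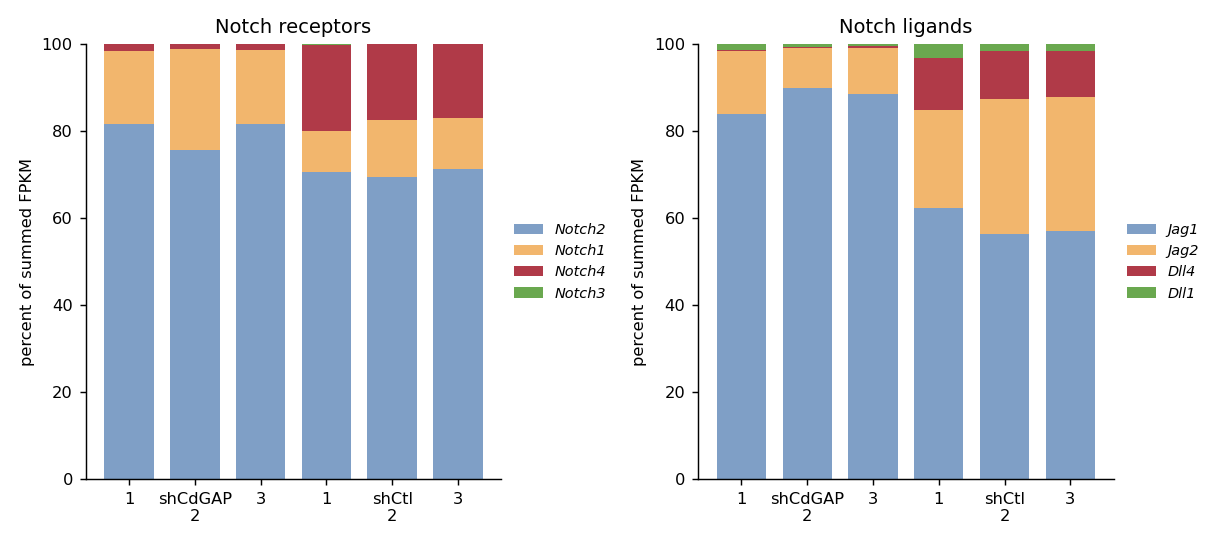
Share of each gene in the summed FPKM of the 4 receptors (left) and of the 4 ligands (right), in percent, 1 bar for each library with the shCdGAP libraries left of the shCtl libraries. Notch4 holds 1.25% to 1.59% of the receptor sum in shCdGAP and 17.0% to 19.9% in shCtl, and Dll4 holds 0.141% to 0.367% of the ligand sum in shCdGAP and 10.4% to 11.8% in shCtl.

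Among the ligands, Dll4 (ENSMUSG00000027314, chromosome 2, 119325784 to 119335962, plus strand), best known for guiding sprouting blood vessels, had 0.0227, 0.0355 and 0.0523 FPKM in shCdGAP, from 2, 3 and 5 reads. In shCtl it had 2.14, 1.42 and 1.14 FPKM, from 159, 150 and 117 reads. Dll4 was close to a floor of 3 reads in every shCdGAP library and far above it in every shCtl library. With 10 reads over all shCdGAP libraries against 426 over all shCtl libraries, the ratio of size-factor-scaled reads was 0.0248 (95% exact interval 0.0118 to 0.0460), an interval that covers counting error only. Fitted on the log2 scale, Dll4 changed by -1.29 (SE 0.14; limma adjusted p = 0.00247), and by -4.64 in the authors' deposited table. It passed in each of 13 alternative fits (adjusted p up to 0.0165, limma), the filter at 5 CPM having removed it. An annotated transcript on the opposite strand, Gm14207, shares exonic sequence with Dll4 and was counted at 0.0266 FPKM in shCdGAP and 1.10 FPKM in shCtl. No source used here says that strand was used in counting, and reads of this pair cannot be told apart.

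Jag2 (ENSMUSG00000002799, chromosome 12, 112907819 to 112929776, minus strand), a ligand of the Jagged type, had 2.330, 1.449 and 1.499 FPKM in shCdGAP, against 4.09, 3.97 and 3.37 FPKM in shCtl. The groups did not overlap, and shCdGAP replicate 1 was the nearest to shCtl. Jag2 fell to a mean of 1.76 ± 0.495 FPKM in shCdGAP, against 3.81 ± 0.383 FPKM in shCtl (SD, n = 3 each), with log2 fold change -0.81 (SE 0.15; limma adjusted p = 0.0154). The call was lost without shCdGAP replicate 2 (adjusted p = 0.0627), shCtl replicate 1 (0.0615) or shCtl replicate 2 (0.0748), and the authors' deposited table called Jag2 lower (log2 fold change -1.08, adjusted p = 0.000152).

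Jag1 (ENSMUSG00000027276, chromosome 2, 137081456 to 137116644, minus strand), the main ligand by level, had 13.5, 14.2 and 12.6 FPKM in shCdGAP, against 11.3, 7.27 and 6.22 FPKM in shCtl. All shCdGAP libraries were above all shCtl libraries, and shCtl replicate 1 came closest to them. Jag1 had a fitted log2 difference of 0.68 (SE 0.21; limma adjusted p = 0.0684). It was 0.90 without shCtl replicate 1 (adjusted p = 0.0137) and 0.90 with both libraries numbered 1 left out (adjusted p = 0.000694), and the authors' deposited table called it higher (log2 fold change 0.67, adjusted p = 0.0403). Dll1 (ENSMUSG00000014773, chromosome 17, 15367354 to 15376872, minus strand), the other Delta-like ligand, was low, with 0.228, 0.119 and 0.0763 FPKM in shCdGAP, from 22, 11 and 8 reads, against 0.601, 0.215 and 0.186 FPKM in shCtl, from 49, 25 and 21 reads. Its groups overlapped, since shCdGAP replicate 1 was above shCtl replicates 2 and 3, and in both groups replicate 1 was the highest (log2 fold change -0.21, SE 0.13, adjusted p = 0.295, limma, and -0.08 with shCtl replicate 1 left out, adjusted p = 0.542).

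The 4 ligands summed to 16.1, 15.8 and 14.2 FPKM in shCdGAP and to 18.1, 12.9 and 10.9 FPKM in shCtl, ranges that overlap, with a ratio of means of 1.10. Jag1 made up 83.9%, 89.9% and 88.6% of the sum in shCdGAP, against 62.4%, 56.5% and 57.0% in shCtl. Jag2 made up 9.17% to 14.5% in shCdGAP, against 22.5% to 30.9% in shCtl, and Dll4 0.141% to 0.367% in shCdGAP, against 10.4% to 11.8% in shCtl.

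Hes1 and Hey1, transcriptional repressors that Notch signaling switches on in many tissues, did not pass the test. Hes1 (ENSMUSG00000022528, chromosome 16, 30064384 to 30067796, plus strand), the most abundant of the 10 genes, had 42.3, 28.3 and 23.8 FPKM in shCdGAP, against 20.5, 23.2 and 22.4 FPKM in shCtl. Replicate 1 of shCdGAP was well above the other 2 of its group, and replicate 3 barely above the highest shCtl library. Hes1 had a fitted log2 difference of 0.46 (SE 0.21; limma adjusted p = 0.186), and 0.23 without shCdGAP replicate 1 (adjusted p = 0.115). Hey1 (ENSMUSG00000040289, chromosome 3, 8663359 to 8667256, minus strand) had 0.814, 4.59 and 3.38 FPKM in shCdGAP, from 41, 222 and 185 reads, against 0.211, 0.495 and 0.339 FPKM in shCtl, from 9, 30 and 20 reads. The groups did not overlap, but shCdGAP replicate 1 lay nearer to shCtl than to its own group, so that this library was the highest of its group for Hes1 and the lowest for Hey1. It was also the lowest of its group for Arhgap31 and for the proliferation genes, and the part of these in Hes1 and Hey1 was not tested. Hey1 had a fitted log2 difference of 1.40 (SE 0.41; limma adjusted p = 0.0604). Hey1 passed with shCdGAP replicate 1 left out (1.88, adjusted p = 0.000236), with both libraries numbered 1 left out (1.81, adjusted p = 0.000171), when replicates were blocked by number (adjusted p = 0.0467) and with 0.1 FPKM added (2.51, adjusted p = 0.0375). The authors' deposited table called it higher (log2 fold change 2.51, adjusted p = 2.49e-05).

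The order of the levels, in FPKM and so per length of gene, was in shCdGAP Hes1, Jag1, Notch2, Hey1, Notch1, Jag2, Notch4, Dll1, Dll4 and Notch3 from high to low. Neighbours whose ranges overlapped there were Hey1 with Notch1, Notch1 with Jag2, and Notch4 with Dll1. In shCtl the order was Hes1, Notch2, Jag1, Jag2, Notch4, Dll4, Notch1, Hey1, Dll1 and Notch3, with overlaps of Notch2 with Jag1, Dll4 with Notch1, and Hey1 with Dll1. Across the 6 libraries, the 2 other genes of at least 5 CPM with the profile closest to Notch2, on log2(FPKM + 1), were Ermp1 and Zfp81 (Pearson's r 0.991 and 0.988). Those closest to Jag1 were Tnks and Igsf9 (0.999 and 0.991), and those closest to Hes1 were Sun1 and Bphl (0.999 and 0.996). These correlations are a description with no test, over 6 libraries that fall into 2 groups.

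Notch4 and Dll4 are known chiefly from endothelium, so 8 endothelial markers were read in the same libraries. All 8 stayed below 0.5 FPKM in every library, and Emcn had no read. Their summed level was 0.00851 to 0.0681 FPKM in shCdGAP and 0.360 to 0.389 FPKM in shCtl, less in each shCtl library than Notch4 or Dll4 alone. Only 2 of the 8 had enough reads to be tested, Tek and Vwf, and neither passed (adjusted p = 0.0589 and 0.262, limma). The sum of the 8 moved with Notch4 and Dll4, and its part in the falls of these genes was not tested. The 6 mammary luminal markers summed to 2.63 to 2.87 FPKM in shCdGAP and 9.26 to 13.2 FPKM in shCtl, of which most was Foxa1 and Pgr had no read. The 6 basal markers summed to 0.0170 to 0.0461 FPKM in shCdGAP and 0.488 to 0.756 FPKM in shCtl. Most of the basal sum in shCtl was Krt5, and Acta2 had no read. Fibroblast markers (7 genes) summed to 0.598 to 1.10 FPKM in shCdGAP and 0.808 to 0.947 FPKM in shCtl. Leukocyte markers (6 genes) summed to 0.639 to 1.33 FPKM in shCdGAP and 0.324 to 0.573 FPKM in shCtl, of which most was Csf1r. Within 250 kb of Notch4, 15 other genes were tested, of which 3 were higher and 1 lower, with a median log2 fold change of 0.23 and a lowest value of -1.23 for Gpsm3. Within 250 kb of Dll4, 13 were tested, of which 0 were higher and 3 lower, with a median of -0.28 and a lowest value of -1.58 for Gchfr. Beside these counts, 9.92% of all tested genes passed as higher and 11.1% as lower, 21.0% in either direction. Genes of chromosome 17 with a mean of at least 3 FPKM had a median 0.36 above that of all such genes on the log2 scale, and those of chromosome 2 a median at -0.19 from it.

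In the rest of the pathway, taken from 7 lists of 85 genes, 72 were tested, of which 10 rose and 7 fell, 23.6% in all beside 21.0% of all tested genes, and 55 did not pass. The median log2 fold change was 0.05. Without shCdGAP replicate 1, 16 rose and 18 fell, where 39.9% of all tested genes were called. The counts were 6 higher and 4 lower without shCdGAP replicate 2, 6 and 6 without shCtl replicate 1, 4 and 3 without shCtl replicate 2, and 5 and 5 without shCtl replicate 3. Over all 13483 tested genes, the same fits called 1476, 1724, 1237 and 1332, in that order, beside 2838 with all 6 libraries. Of the 17 pathway calls, 7 were kept with each library left out in turn, those on Poglut1, Neurl1b, Nrarp, Nfkb2, Kat2b, Tcf7 and Mfap5.

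The largest rise was that of Poglut1, which encodes the enzyme that adds O-linked glucose to the epidermal growth factor repeats of Notch. It had 6.11, 6.46 and 5.70 FPKM in shCdGAP, from 651, 661 and 659 reads, against 0.0445, 0.0859 and 0.0802 FPKM in shCtl, from 4, 11 and 10 reads. It was close to silent in all shCtl libraries and even across the shCdGAP libraries, 86.8-fold higher by mean FPKM (log2 fold change 2.73, SE 0.09, adjusted p = 4.99e-05, limma). Poglut1 lies on chromosome 16 at 38525137 to 38550258, 48.1 kb from Arhgap31. Pofut1, which adds O-linked fucose to the same repeats, fell to 3.76 ± 0.272 FPKM in shCdGAP, against 6.46 ± 0.354 FPKM in shCtl (SD, n = 3 each; adjusted p = 0.00712, limma, and 0.0512 without shCtl replicate 2). Xxylt1, which extends the O-glucose sugar with xylose, fell as well (log2 fold change -0.69, adjusted p = 0.0205, limma), a call lost without shCdGAP replicate 2 or shCtl replicate 2 or 3 (adjusted p = 0.0644 to 0.0963). Of the 7 tested glycosylation genes, 1 rose, 2 fell and 4 did not pass, beside 21.0% of all tested genes called. The fringe gene Lfng, which modifies how receptors tell ligands apart, was among the last, and Mfng had too few reads to be tested.

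Of 8 tested genes that act on ligands or encode other ligands, 3 rose and 1 fell, beside 21.0% of all tested genes called. Neurl1b, a ubiquitin ligase that promotes ligand uptake, had 6.69, 10.2 and 8.52 FPKM in shCdGAP, against 0.769, 1.22 and 1.03 FPKM in shCtl. All shCdGAP libraries were far above the shCtl libraries (log2 fold change 2.23, SE 0.17, adjusted p = 0.000627, limma). Its relative Neurl1a rose to 1.82 ± 0.509 FPKM in shCdGAP, against 0.695 ± 0.0561 FPKM in shCtl, and Egfl7, a secreted Notch-binding protein, to 2.10 ± 0.508 FPKM in shCdGAP, against 0.989 ± 0.0833 FPKM in shCtl (SD, n = 3 each). Both calls were lost without shCdGAP replicate 2 or any shCtl library (adjusted p = 0.0569 to 0.101, limma). Mfap5 fell on few reads, 1 over the shCdGAP libraries against 12, 18 and 23 in shCtl replicates 1, 2 and 3 (adjusted p = 0.0102, limma; ratio of scaled reads 0.0199, 95% exact interval 0.000495 to 0.116). It encodes a microfibril protein that can bind Notch ligands. The other ligands Dll3, Dlk1, Dner and Cntn1 had too few reads to be tested.

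None of the 10 tested receptor processing genes passed with limma, beside 21.0% of all tested genes, and 1, Psenen, was at an unadjusted p under 0.05. Psenen and Adam10 were the most abundant of them. Psenen, a subunit of gamma-secretase, averaged 57.8 ± 3.58 FPKM in shCdGAP and 46.7 ± 1.34 FPKM in shCtl (SD, n = 3 each; adjusted p = 0.0684, limma, and 0.0317 without shCdGAP replicate 1). Adam10, the protease that makes the first cut after ligand binding, averaged 43.3 ± 4.24 FPKM in shCdGAP and 40.1 ± 1.61 FPKM in shCtl (adjusted p = 0.536, limma).

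In the nuclear complex that reads the signal, 2 of 9 genes rose and 0 fell with limma, beside 21.0% of all tested genes called. The other 7 did not pass, 3 of these at an unadjusted p under 0.05. Kat2b, a histone acetyltransferase, rose to 9.16 ± 0.397 FPKM in shCdGAP, against 5.51 ± 0.327 FPKM in shCtl (SD, n = 3 each; adjusted p = 0.00613, limma). Maml2, a Mastermind co-activator, rose to 2.11 ± 0.337 FPKM in shCdGAP, against 0.989 ± 0.0969 FPKM in shCtl (adjusted p = 0.0125, limma, and 0.0593 and 0.0558 without shCtl replicate 2 or 3). Rbpj itself, the DNA-binding partner, averaged 16.6 ± 2.52 FPKM in shCdGAP and 24.0 ± 5.83 FPKM in shCtl, and passed without shCdGAP replicate 1 but not with all 6 libraries (adjusted p = 0.0375 and 0.129, limma, and 0.0415 with the replicate block). It was named after its values were seen. Of 14 co-repressor genes, 1 rose, 1 fell and 12 did not pass with limma, beside 21.0% of all tested genes called. The one that rose was Tle3, a Groucho co-repressor, at 14.4 ± 0.592 FPKM in shCdGAP, against 9.60 ± 0.632 FPKM in shCtl (adjusted p = 0.0112, limma, and 0.0573 and 0.0710 without shCdGAP replicate 2 or shCtl replicate 2).

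Of 10 tested genes of receptor turnover, 2 rose and none fell with limma, beside 21.0% of all tested genes called. Nedd4, a ubiquitin ligase, rose to 236 ± 26.2 FPKM in shCdGAP, against 167 ± 7.69 FPKM in shCtl (SD, n = 3 each; adjusted p = 0.0291, limma, and 0.0671 with the replicate block). The call was kept without shCdGAP replicate 1 and lost without any other library (adjusted p = 0.0523 to 0.112). Dtx4, a Deltex ubiquitin ligase, rose to 5.33 ± 2.08 FPKM in shCdGAP, against 2.29 ± 0.355 FPKM in shCtl (adjusted p = 0.0484, limma), a call lost without shCdGAP replicate 3 or any shCtl library (adjusted p = 0.0931 to 0.163).

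Of 20 other target genes, 14 were tested, of which 1 rose and 3 fell, beside 21.0% of all tested genes called. Without shCdGAP replicate 1, 1 rose and 8 fell, beside 39.9% of all tested genes called. Nrarp, which encodes a feedback inhibitor of Notch signaling and is itself a target, had 2.83, 3.46 and 3.49 FPKM in shCdGAP, against 8.64, 8.80 and 9.15 FPKM in shCtl. The groups were tight and well apart (log2 fold change -1.21, SE 0.11, adjusted p = 0.000939, limma), so Nrarp fell while the targets Hes1 and Hey1 were at higher levels in shCdGAP without passing. Tcf7, a transcription factor and Notch target of T cells, had 7.01, 4.69 and 4.78 FPKM in shCdGAP, against 22.3, 13.2 and 13.8 FPKM in shCtl, with replicate 1 the highest of each group (log2 fold change -1.41, adjusted p = 0.0110, limma). Cdkn1a, which encodes the cell cycle inhibitor p21, fell to 59.6 ± 3.24 FPKM in shCdGAP, against 87.4 ± 3.02 FPKM in shCtl (SD, n = 3 each; adjusted p = 0.00990, limma, and 0.0512 and 0.0652 without shCdGAP replicate 2 or shCtl replicate 2). The NF-kappaB subunit gene Nfkb2 was the one that rose, to 41.6 ± 5.12 FPKM in shCdGAP, against 22.7 ± 1.54 FPKM in shCtl (adjusted p = 0.00599, limma). Of the other Hes and Hey genes, only Hes6 had enough reads to be tested, and it did not pass with all 6 libraries. It passed as lower without shCdGAP replicate 1 (log2 fold change -0.45, adjusted p = 0.0157, limma). The same held without both libraries numbered 1 (-0.46, adjusted p = 0.0125, limma). Hes2, Hes3, Hes5, Hes7, Hey2 and Heyl had too few reads, and Hes5 had none in any library.

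**Figure D4:**
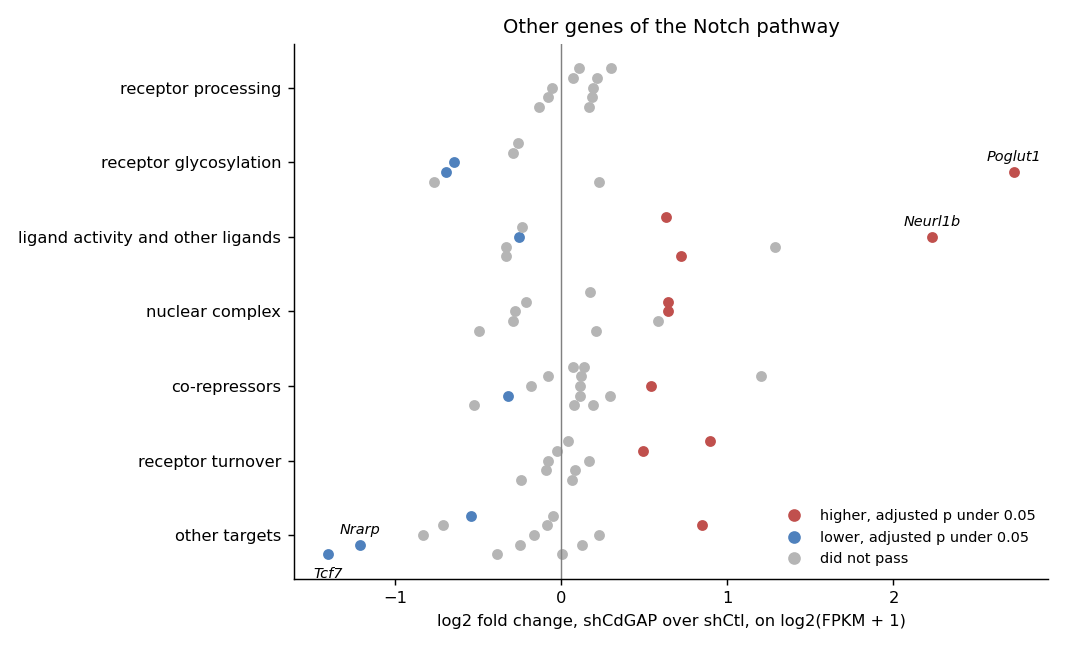
Fitted log2 fold change of shCdGAP over shCtl for each of the 72 tested other genes of the pathway, in 7 rows by role, with the 10 that rose in red, the 7 that fell in blue and the 55 that did not pass in grey. Poglut1 (2.73) and Neurl1b (2.23) lie farthest right, Tcf7 (-1.41) and Nrarp (-1.21) farthest left, and the receptor processing genes all lie close to 0 and grey.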

How the data were processed

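RNA from 6 libraries, 3 for each group as the labels give them, was read from 1 table of 41214 genes. The authors deposited FPKM for each gene and library, along with the mean normalised signal, the log2 fold change, its standard error and test score, and p-values of a DESeq2 comparison, per the file headers. The submitters' processing notes name Trimmomatic, TopHat2 2.0.13, featureCounts, DESeq2 and build mm10, with no roles or order. FPKM times a gene's ratio of mean signal to mean FPKM and the library's size factor gave whole reads for all genes (100% within 1e-06), so the deposited FPKM are already divided by size factors. Depth sums these reads. Of the gene IDs, 40254 were in the GENCODE M21 annotation of GRCm38, which gave positions.

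A gene was tested if 3 or more libraries held 10 or more reads at median depth, with 15 or more summed over all 6 (13483 of the 22322 genes with reads). log2(FPKM + 1) was fitted with limma 3.58.1 in R 4.3.3 (trend, robust, 2-sided) on group alone, adjusted by Benjamini-Hochberg over all tested genes, with calls under 0.05. The script was tested on simulated data, where the share of calls on unchanged genes was somewhat above the threshold of 0.05. These data held no outlying library and no pairing, so the test does not cover those features. Same-numbered libraries deviated together (correlations 0.43, 0.39 and 0.34 across genes), although shCdGAP replicate 2 and shCtl replicate 3 reached 0.35. For shCdGAP replicate 3 and shCtl replicate 2 the correlation was 0.27. Deviations were taken from the group means, so these correlations are not independent of each other and do not by themselves show pairing. The replicate block, an alternative fit, took the numbers to pair libraries, from the data and not the labels. The main fit did not pair them. The block changed the calls on Hey1, Nedd4, Rbpj and the marker Krt7 among the genes described, as given beside each. A fitted fold understates the change of a low gene. Intervals on reads are exact binomial ones and cover counting error only.

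The genes and lists were chosen with earlier results of these data known. Genes named beyond the 10 are, per list, up to 4 called genes of smallest p, or the 2 most abundant where none was called, and the 2 genes closest in profile to the most abundant receptor, ligand and target; 1 gene that this rule names is not reported here. Alternatives were other scalings, pseudocounts and filters, limma-voom on the recovered reads, the replicate block, and each library left out.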

Additional observations from a re-analysis of the deposited data

How the results depend on the processing

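Of the 123 alternative fits of the 9 tested Notch genes, 112 kept the direction and the side of the threshold, 8 newly passed, 3 no longer passed (all for Jag2, as given above) and 0 turned round. Over all genes, 2838 were called, 1237 to 5373 with 1 library left out, the fewest in the fit lacking shCtl replicate 2 and the most in that lacking shCdGAP replicate 1, and 6506 in that lacking both libraries numbered 1. Among the Notch genes, the count of higher calls was 0, and became 1 with a pseudocount of 0.1 FPKM, 3 without both libraries numbered 1, and 0 to 2 with 1 library left out; the count of lower calls was 3, and 2 to 3 with 1 library left out. Among the other pathway genes, higher calls numbered 10, and 4 to 16 with 1 library left out and 21 without both libraries numbered 1; lower calls numbered 7, and 3 to 18 with 1 library left out and 19 without both libraries numbered 1. With the replicate block, pairing same-numbered libraries, 2458 genes were called, 1 Notch gene higher and 3 lower, and 9 other pathway genes higher and 8 lower. The ratio of summed receptors stayed between 0.996 and 1.11 and that of ligands between 0.991 and 1.29 with 1 library left out. Why these counts moved was not tested. The filter at 5 CPM removed Dll1, Dll4 and Hey1, and scaling by TMM was not run, with upper quartile scaling in its place. Notch3, Dll1 and Dll4 in shCdGAP rest on few reads, which limits the precision of their levels.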
